A study of Mus musculus with 16 samples.

Results

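In Gao-binge feeding, a model of alcoholic liver injury, mice first drink ethanol in a liquid diet for days and then receive a single large dose by gavage. The comparison here is of wild-type livers after this regimen (4 libraries, called ethanol) with wild-type livers on a control diet (4 libraries, called control), 8 of the 16 libraries in the series, across all genes with a symbol. All mice were C57BL/6J, the time given for every sample is 10 days, and the labels used here give no sex, age, alcohol dose or interval between gavage and sampling. The other 8 libraries came from hepatic Tsc1 knockout livers, 4 after the same alcohol regimen and 4 on control diet. They were used here to estimate the spread between libraries and, at the end, to test where the wild-type response differed from that of the knockout. PolyA RNA of whole liver was sequenced. The labels do not say whether libraries came from separate animals. Values listed for ethanol or control livers are those of libraries.

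Hepatocytes clear most ingested alcohol. Alcohol dehydrogenase in the cytosol and the cytochrome Cyp2e1 in the endoplasmic reticulum turn ethanol into acetaldehyde, and the mitochondrial aldehyde dehydrogenase Aldh2 turns that into acetate. This oxidation shifts the redox state of the cell, and the liver answers alcohol with fat accumulation, oxidative and endoplasmic reticulum stress, changes in sterol and bile acid synthesis, and recruitment or loss of immune cells.

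Total counts ran from 17.384 to 21.757 M in the ethanol libraries and from 16.625 to 18.694 M in the control libraries. Albumin transcripts, which mark hepatocytes, took 8.375 ± 0.450% of counts in ethanol libraries and 7.995 ± 0.291% in control libraries (SD, n = 4 each), and none of 11 markers of pancreas, fat and muscle reached the level needed for a test. The first principal component of log2 expression in the 8 wild-type libraries held 58.5% of the variance, with every ethanol library between -60.8 and -35.4 and every control library between 38.8 and 49.1. Ethanol library 4 stood apart from the rest of its group. Its counts differed from those of the other 3 by a chi-square per degree of freedom of 93.8 to 168.9, against 42.2 to 52.6 among those 3.

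After ethanol, 4811 of 14346 tested genes (33.5%) passed the test at an adjusted p under 0.05, 2525 higher (17.6%) and 2286 lower (15.9%). Without ethanol library 4 the count was 3916. With a change of at least 2-fold added, 964 genes (6.72%) were higher and 715 (4.98%) were lower. The values of the 4 ethanol and 4 control libraries did not overlap in 4440 genes (30.9%). A gene is said to have risen, fallen or been called only where it passed edgeR's quasi-likelihood test after Benjamini-Hochberg adjustment over all tested genes. Levels are in CPM, a count scaled to the TMM-adjusted total of its library and not to the length of the gene. Changes are log2 differences, ethanol minus control. Their standard error (SE) is the size of the difference over the square root of the test's F statistic, and was not estimated separately. The median of a list is the median of the log2 difference over its tested members. The median difference over all tested genes was -0.006. When libraries were scaled by their totals alone it was -0.144, and 34.5% instead of 52.5% of the called genes were higher. With 33.5% of all genes called, the counts of a gene list are read beside these shares. The lists were chosen with earlier results of these data known. A list above these shares is therefore a description and not a test.

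**Figure D1:**
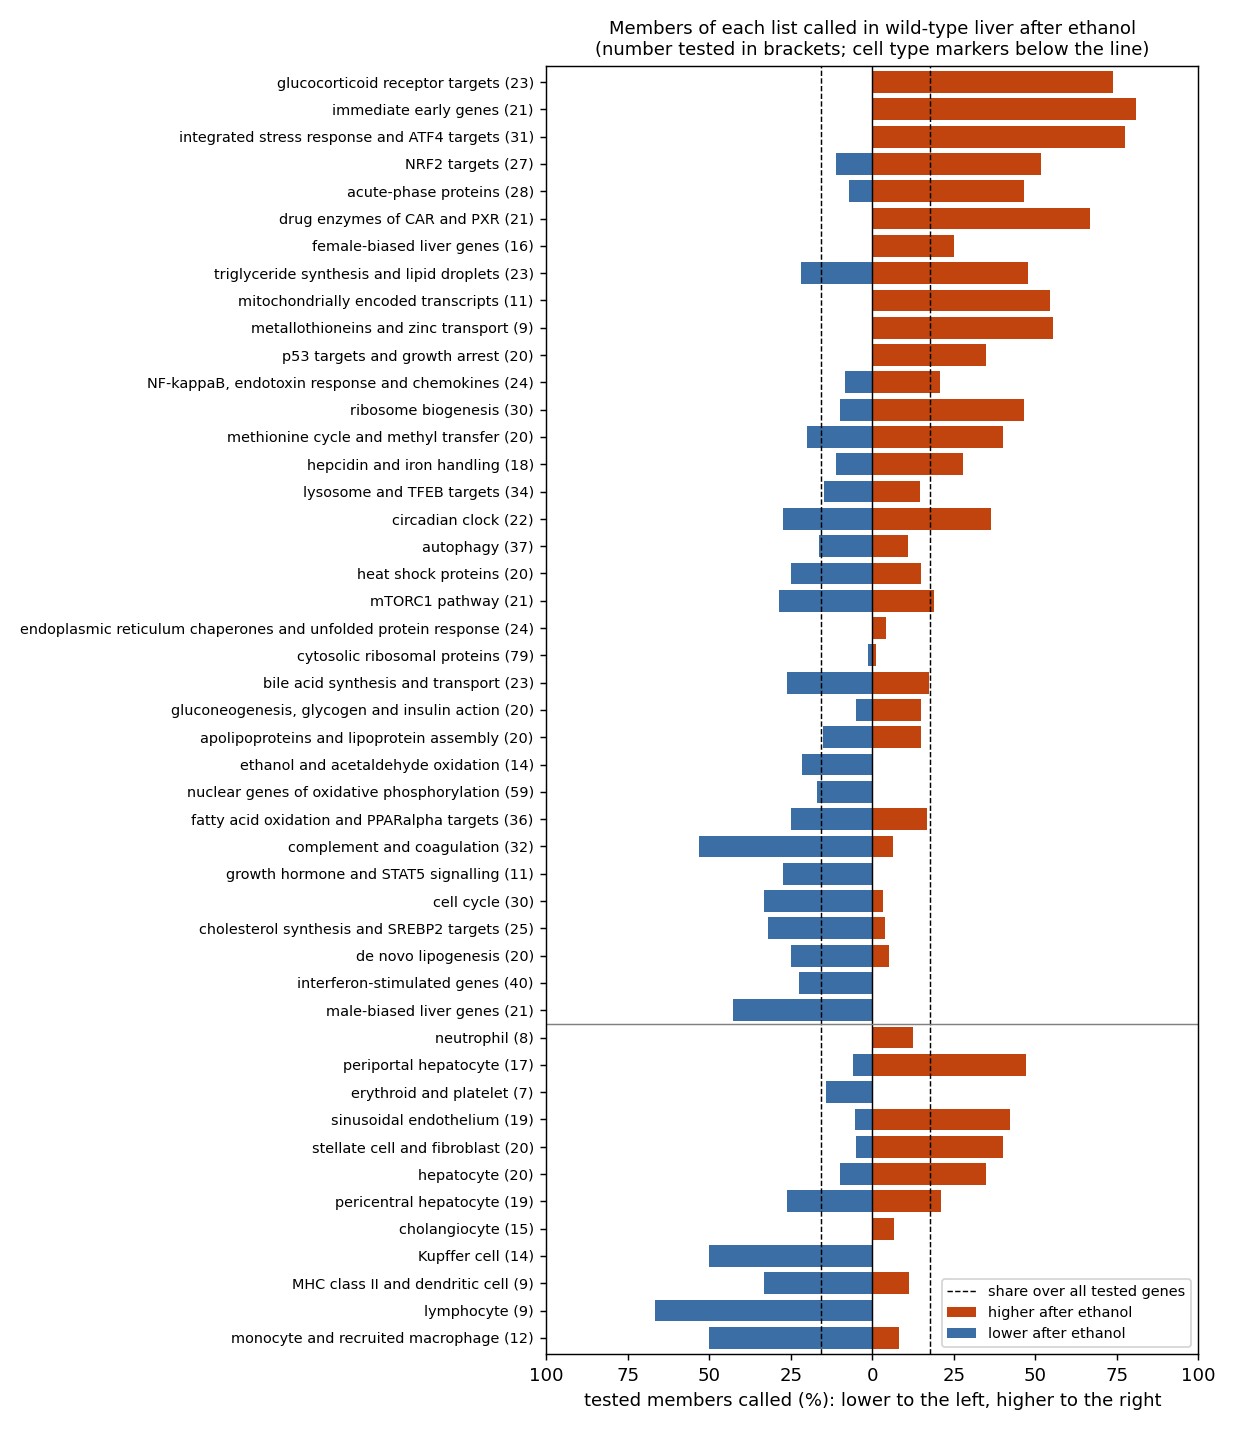
For each gene list (top) and cell type marker list (below the grey line), bars give the percentage of tested members called higher (right, orange) and lower (left, blue) in ethanol against control livers, with the shares over all tested genes (17.6% and 15.9%) as dashed lines. Glucocorticoid receptor targets, immediate early genes and ATF4 targets reach farthest to the right, and lymphocyte markers and complement and coagulation genes reach farthest to the left. The lists were chosen with earlier results of these data known.

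The largest rise among named genes was in a drug-metabolizing cytochrome. Cyp2b10, the best known target of the nuclear receptor CAR (chromosome 7, 25897620 to 25926624, plus strand, GRCm38), stood at 1098, 921, 1419 and 847 CPM in ethanol livers, against 7.52, 0.586, 2.09 and 0.348 CPM in control livers (8.66 ± 0.97 log2, SE, adjusted p = 2.69e-05; 10.07 without control library 1). The lowest ethanol library was 113 times above the highest control library, control 1. Among called genes with separate groups and at least 5 CPM on average, the next largest rises were in the metallothionein Mt2, the cell cycle inhibitor Cdkn1a, the secreted lipocalins Orm3 and Lcn2, the stress factor Atf3, the phosphate transporter Slc34a2, the phosphatase Dusp8, the mTORC1 inhibitor Ddit4, the glutathione transferase Gstm3, the transcription factor Cux2 and the stress hormone Gdf15, with differences of 4.82 to 6.92 log2. Leaving out ethanol library 1 gave 4.58 log2 for Dusp8, and leaving out ethanol library 3 gave 4.57 for Slc34a2.

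Hsd3b5, a steroid enzyme typical of male mouse liver (chromosome 3, 98618634 to 98630252, minus strand), fell to 6.51, 9.06, 4.94 and 1.75 CPM in ethanol livers, against 377, 354, 258 and 309 CPM in control livers (-5.87 ± 0.60 log2, adjusted p = 1.29e-05). The carboxylesterase Ces4a, the major urinary protein Mup21, the organic anion transporter family member Slc22a28, the adhesion receptor Adgrv1, the glucuronosyltransferase Ugt2b38, the bile acid enzyme Cyp7a1, Keg1, the antisense transcript Tbx3os1, Nrep, Hsd3b2 and the laminin chain Lama3 fell too, with differences of -4.85 to -3.02 log2. In each of these 12 the ethanol and control values were apart. Reads of Tbx3os1 cannot be told from those of a gene on the other strand, since the strand setting of the counting is not given, and members of the Cyp2b, Ces, Gst, Mup, Slc22a and Ugt2b families share sequence, so their values may be split among near-identical genes.

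Most enzymes of ethanol oxidation were not called, as holds for all tested genes, of which 33.5% were called. Of 14 tested members of that list, 0 rose (against 17.6% of all genes) and 3 fell (21.43%, against 15.9%). The median was -0.16 log2, and 1 fell without control library 4 or ethanol library 1 or 4. Adh1, the main liver alcohol dehydrogenase, stood at 1958, 2444, 2057 and 1967 CPM in ethanol livers and 2518, 1768, 1615 and 2264 CPM in control livers (0.04 ± 0.17 log2, adjusted p = 0.862). Cyp2e1, whose protein is known to be stabilized by ethanol, was at -0.31 ± 0.27 log2 (adjusted p = 0.401) and Aldh2 at 0.10 ± 0.13 (adjusted p = 0.578). For these 3 the ranges of the groups overlapped. Adh4, a class II dehydrogenase that also handles retinol, fell to 42.9, 71.3, 35.9 and 41.1 CPM in ethanol livers, against 134, 119.9, 107 and 170.1 CPM in control livers (-1.48 ± 0.23 log2, adjusted p = 2.33e-04), with the groups apart. Catalase (Cat, -0.51 log2) and the fatty aldehyde dehydrogenase Aldh3a2 (-0.59) fell with overlapping groups. The call of Cat was lost without control library 1, 3 or 4 or ethanol library 1 or 4 (-0.52 to -0.40), and that of Aldh3a2 without control library 4 or ethanol library 1 or 4 (-0.57 to -0.44).

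Drug-metabolizing enzymes rose around this core. CAR and PXR are nuclear receptors that sense foreign compounds and switch on oxidation, conjugation and export. Of 21 tested genes of the CAR and PXR list, 14 rose and 0 fell, with a median of 0.78 log2 (1 fell without ethanol library 3). Cyp2c29, another cytochrome of this group, stood at 5657, 5530.3, 5136 and 4126 CPM in ethanol livers, against 528, 449, 760.1 and 699.7 CPM in control livers, 8.39-fold higher (adjusted p = 3.12e-05). Por, the reductase that feeds electrons to all microsomal cytochromes, stood at 1374, 1369, 1639.8 and 1686 CPM in ethanol livers and 537, 487, 639 and 420.5 CPM in control livers (1.54 ± 0.15 log2, adjusted p = 3.30e-06). In both genes every ethanol library was above every control library, by at least 5.43 times for Cyp2c29 and 2.14 times for Por. Cyp2c55 (3.33 log2), the sulfotransferase Sult1d1 (1.36), the exporter Abcc3 (1.24) and the receptor gene of PXR itself, Nr1i2 (0.70), rose too. The gene of CAR, Nr1i3, was at -0.60 ± 0.38 log2 (adjusted p = 0.238; called, at -1.01, without ethanol library 3), and the exporter Abcc2 was at 0.20 ± 0.19 (adjusted p = 0.449).

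Glutathione transferases and other NRF2 targets formed another detoxifying group. NRF2 is a transcription factor released by oxidants and electrophiles. Of 27 tested targets 14 rose and 3 fell, with a median of 1.14 log2 (15 higher and 1 lower without ethanol library 4). Gstm1 stood at 2584, 3598, 5002 and 3939 CPM in ethanol livers, against 654, 479.9, 684 and 702 CPM in control livers (2.58 ± 0.23 log2, adjusted p = 1.45e-06). Nqo1, a quinone reductase, stood at 14.9, 19.4, 33.1 and 19.7 CPM in ethanol livers and 3.06, 3.36, 2.95 and 4.36 CPM in control livers (2.66 ± 0.25 log2, adjusted p = 2.71e-06). The groups were apart in both. Gstm3 (5.18 log2), Gstm4 (2.33), Gsta2 (3.52), Gsta4 (1.61), the carbonyl reductase Cbr3 (4.41), the exporter Abcc4 (3.72), the sulfiredoxin Srxn1 (2.20), the epoxide hydrolase Ephx1 (1.29) and the heme oxygenase Hmox1 (2.95) rose. Gsta1 rose by 4.42 log2, or 5.50 without control library 2. Of the 2 subunits of the enzyme that starts glutathione synthesis, Gclm fell (-0.72 ± 0.12 log2, adjusted p = 2.65e-04) and Gclc was at -0.22 ± 0.32 (adjusted p = 0.618). Nfe2l2, which encodes NRF2, was at 0.29 ± 0.16 log2 (adjusted p = 0.173).

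Genes of the methionine cycle, which supplies methyl groups and the sulfur of glutathione, moved in both directions. Of 20 tested members 8 rose and 4 fell (6 and 6 when libraries were scaled by totals alone), with a median of 0.18 log2 (2 fell without control library 1 or 4 or ethanol library 1, 2 or 4). Mat1a, the liver methionine adenosyltransferase, stood at 8255, 8854, 10324 and 12777 CPM in ethanol livers, against 3499.8, 2862, 4245 and 3290.5 CPM in control livers (1.53 ± 0.18 log2, adjusted p = 1.50e-05), with no overlap. Its form outside liver, Mat2a, rose by 0.92 log2, the glycine methyltransferase Gnmt by 0.85, the folate dehydrogenase Aldh1l1 by 0.77 and the nicotinamide methyltransferase Nnmt by 2.05. The methionine synthase Mtr (-0.98 ± 0.14 log2, adjusted p = 7.73e-05) and the choline dehydrogenase Chdh (-0.60 ± 0.12, adjusted p = 0.00161) fell. Cbs, the entry to cysteine synthesis, was at -0.05 ± 0.20 (adjusted p = 0.868).

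Genes of the integrated stress response rose broadly. In this response, kinases that sense amino acid shortage, unfolded protein or heme shortage slow translation, and the transcription factor ATF4 then switches on amino acid transport and synthesis. Of 31 tested members 24 rose and 0 fell, with a median of 1.67 log2. Trib3, a pseudokinase induced by ATF4, stood at 203, 33.3, 74.4 and 157 CPM in ethanol livers, against 9.02, 6.88, 4.12 and 3.14 CPM in control livers (4.33 ± 0.63 log2, adjusted p = 1.87e-04). Chac1, which degrades glutathione, stood at 64.1, 21.9, 17.2 and 64.6 CPM in ethanol livers and 1.78, 6.34, 2.21 and 4.88 CPM in control livers (3.46 ± 0.52 log2, adjusted p = 2.46e-04). Atf3, a transcription factor of the same pathway, stood at 204, 8.19, 36.9 and 112 CPM in ethanol livers and 1.28, 4.58, 0.738 and 0.755 CPM in control livers. Ethanol library 2 was the lowest ethanol library for Trib3 and for Atf3, ethanol library 3 was the lowest for Chac1, control library 2 was the highest control for Atf3 and Chac1, and the groups did not overlap for any of the 3. The difference of 5.59 ± 0.94 log2 for Atf3 (adjusted p = 5.74e-04) was 4.80 without ethanol library 1 and 6.59 without control library 2.

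The promoters of Atf3, Chac1 and Fgf21 are shown because each holds the letters TGATGNAA (N stands for any base), the composite site that ATF4 binds with C/EBP proteins, read on either strand. The capitals mark the match. The bases are those before the RefSeq transcription start (GRCm38.p6), 5′ to 3′ on the strand of the gene, without bases in annotated exons.
Atf3 (chr1:191183341-191183583, minus strand): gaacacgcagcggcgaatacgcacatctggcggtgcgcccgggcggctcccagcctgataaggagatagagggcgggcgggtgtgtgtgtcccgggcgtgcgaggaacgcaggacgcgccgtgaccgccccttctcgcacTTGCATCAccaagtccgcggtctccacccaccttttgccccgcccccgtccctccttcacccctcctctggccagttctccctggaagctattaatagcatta
Chac1 (chr2:119350992-119351228, plus strand): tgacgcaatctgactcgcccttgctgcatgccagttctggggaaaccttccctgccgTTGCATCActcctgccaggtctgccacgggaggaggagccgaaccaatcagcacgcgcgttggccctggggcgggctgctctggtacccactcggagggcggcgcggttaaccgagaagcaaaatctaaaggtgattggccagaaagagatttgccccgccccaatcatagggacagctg
Fgf21 (chr7:45615491-45615740, minus strand): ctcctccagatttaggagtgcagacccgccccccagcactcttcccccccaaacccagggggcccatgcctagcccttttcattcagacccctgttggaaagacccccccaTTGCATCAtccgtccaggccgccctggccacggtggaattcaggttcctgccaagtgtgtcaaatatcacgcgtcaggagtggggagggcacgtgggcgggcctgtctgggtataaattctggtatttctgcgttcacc
All 3 carry the match in the reverse orientation, as TTGCATCA, between 193 and 103 bases before the start. Of the 28 members of the list with a promoter in the RefSeq table, 8 hold at least 1 match in the 250 bases before a start (Asns, Atf3, Chac1, Fgf21, Nupr1, Pycr1, Slc7a11 and Vldlr). Of all 32851 promoter windows of this length, 3.45% hold one. That share is per window, while the 28 members, counted once each, have 33 windows. A match is a description of the letters and not a sign of binding.

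Other ATF4 targets covered amino acid handling, translation control and secreted factors. Ddit3, also called CHOP (2.49 log2), the mTORC1 inhibitor Sesn2 (2.71), the asparagine synthetase Asns (2.84), the mitochondrial folate enzyme Mthfd2 (3.62), the amino acid transporter parts Slc3a2 (1.40) and Slc38a2 (1.67) and Atf4 itself (0.73) rose. The serine synthesis enzyme Psat1 rose by 3.66 log2, or by 4.80 without control library 2 and 2.88 without ethanol library 4. Gdf15, a hormone that lowers appetite (chromosome 8, 70629393 to 70632456, minus strand), stood at 172, 88.3, 119 and 63.2 CPM in ethanol livers, against 4.12, 5.44, 2.15 and 3.83 CPM in control livers (4.82 ± 0.69 log2, adjusted p = 1.78e-04). Fgf21, a fasting and stress hormone that in mice lowers alcohol intake, stood at 156, 28.1, 132 and 17.4 CPM in ethanol livers and 8.19, 12.5, 2.89 and 6.74 CPM in control livers (3.45 ± 0.71 log2, adjusted p = 0.00214). The lowest ethanol library was 11.6 times above the highest control library for Gdf15 and 1.39 times above it for Fgf21.

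Few chaperones were called. Of 24 tested endoplasmic reticulum chaperones and unfolded protein response genes 1 rose, P4hb, and 0 fell, with a median of -0.05 log2 (0.1 to 0.155 without control library 3 or ethanol library 1 or 3). Without control library 3 or ethanol library 3 the count of rises was 2, without ethanol library 2 the count of falls was 1, and when libraries were scaled by totals alone 0 rose and 1 fell. That 1 call was lost without control library 1, 2 or 4 or ethanol library 2 or 4 (0.25 to 0.32, against 0.33 with all). Hspa5, the main chaperone of that compartment, was at 649.8, 1149.7, 664 and 2953 CPM in ethanol livers and 662, 768, 1366 and 859 CPM in control livers (0.57 ± 0.45 log2, adjusted p = 0.35), and ethanol library 4 alone was far above the rest. Of 20 tested heat shock genes 3 rose and 5 fell (3 without ethanol library 4). Hsph1, a partner of the chaperone HSP70, fell to 16.9, 17.5, 27.4 and 12.3 CPM in ethanol livers, against 37.3, 55.3, 56.5 and 52.5 CPM in control livers (-1.45 ± 0.22 log2, adjusted p = 1.60e-04), and its groups were apart. The co-chaperone Dnajb1 fell by 0.86 log2, while the small heat shock protein Hspb8 rose by 1.59.

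Immediate early and growth arrest genes rose as well. Of 21 tested immediate early genes, which respond within minutes to stress or growth signals, 17 rose and 0 fell, with a median of 1.75 log2. Jun stood at 158, 89.1, 131 and 57.9 CPM in ethanol livers, against 12, 30.9, 10.6 and 8.77 CPM in control livers (2.81 ± 0.60 log2, adjusted p = 0.00269), and Klf6 at 172, 45.2, 44.7 and 87.3 CPM in ethanol livers and 9.86, 12, 7.87 and 8.42 CPM in control livers (3.19 ± 0.40 log2, adjusted p = 5.52e-05). Jund rose by 1.60 log2, Myc by 2.71, and Egr1 by 3.84, or 4.49 without control library 1. Fos was at 2.02 ± 0.93 log2 (adjusted p = 0.107) although its groups did not overlap, and it was called in the fit of the 8 wild-type libraries alone (adjusted p = 0.0315).

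Cdkn1a, which encodes the cell cycle inhibitor p21 (chromosome 17, 29090976 to 29100727, plus strand), stood at 117, 118, 204 and 225 CPM in ethanol livers, against 1.06, 3.36, 1.66 and 1.86 CPM in control livers (6.37 ± 0.54 log2, adjusted p = 2.78e-06). The lowest ethanol library was 34.7 times above the highest control. It belongs to a list of p53 targets and growth arrest genes of which 7 of 20 tested rose and 0 fell, with a median of 0.45 log2. The others that rose were Btg2 (4.07 log2), Trp53inp1 (3.44), Gadd45b (3.22), Gadd45g (2.51), Gadd45a (3.22, or 2.40 without ethanol library 1) and Gdf15, which respond to several stress signals. Bax, a pro-apoptotic p53 target, was at -0.28 ± 0.14 log2 (adjusted p = 0.122). Of 30 tested cell cycle genes 1 rose and 10 fell, with a median of -0.45 log2 (6 fell without control library 2 or ethanol library 1 or 4). The thymidine kinase Tk1 fell to 7.34, 6.63, 7.14 and 4.17 CPM in ethanol livers, against 29, 17.1, 14 and 16.8 CPM in control livers (-1.60 ± 0.29 log2, adjusted p = 6.11e-04), and the replication gene Mcm5 (-1.74) and the factor E2f2 (-1.98) fell, with control levels under 3 CPM. The ribonucleotide reductase gene Rrm2, the 1 that rose, was at 1.41 ± 0.36 log2 (adjusted p = 0.00748), and the proliferation marker Mki67 was at -0.16 ± 0.41 (adjusted p = 0.789).

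**Figure D2:**
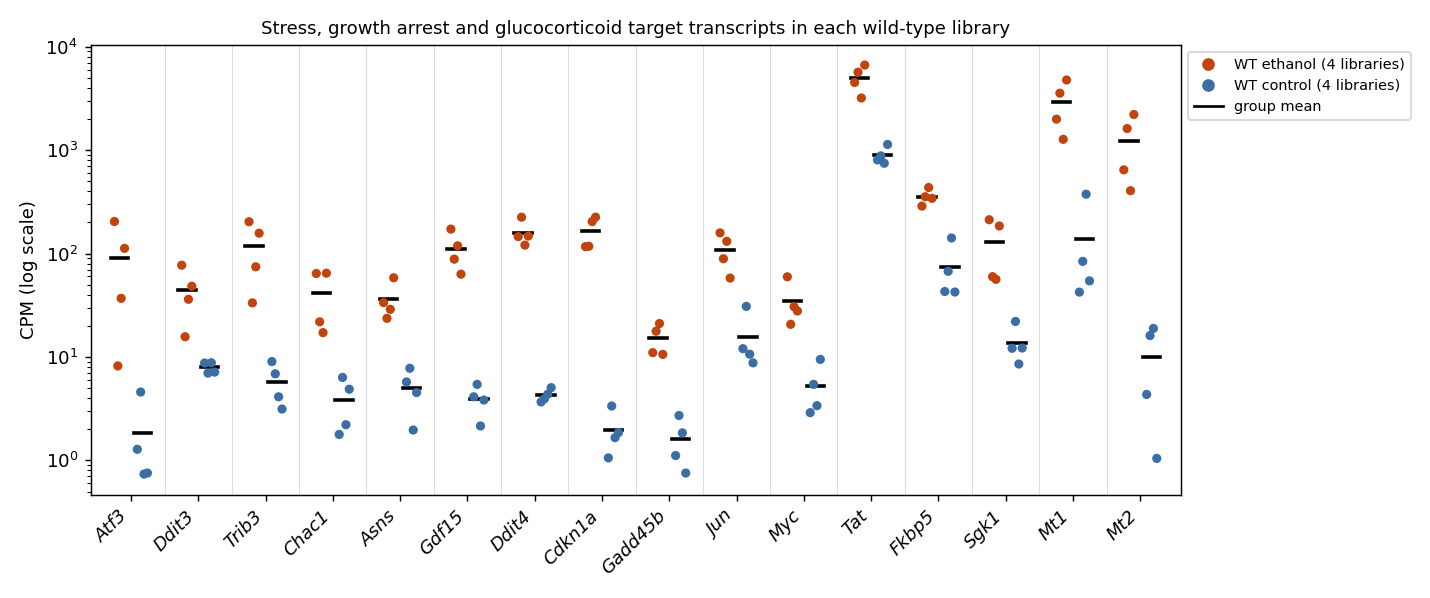
CPM on a log axis in each ethanol (orange, left) and control (blue, right) wild-type library for 16 transcripts of the stress response, growth arrest and glucocorticoid action, with a bar at each group mean. In every gene shown the 4 ethanol libraries lie above the 4 control libraries, and for Cdkn1a, Ddit4 and Mt2 the lowest ethanol library is 34.7, 23.9 and 21.4 times above the highest control.

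Glucocorticoid receptor targets had the highest median of the lists, 2.12 log2. Glucocorticoids are the adrenal stress hormones and act on liver to raise amino acid breakdown and glucose output. Of 23 tested targets 17 rose and 0 fell. The list shares Mt1, Mt2, Ddit4, Pdk4, Angptl4, Cdkn1a, Igfbp1 and others with the lists on metal, stress, fat and insulin. Tat, a tyrosine aminotransferase and the classical target in liver, stood at 4512, 5669, 3191 and 6638 CPM in ethanol livers, against 803, 880.0, 746 and 1134 CPM in control livers (2.49 ± 0.24 log2, adjusted p = 2.91e-06). Fkbp5, which restrains the receptor, stood at 288, 354, 435 and 342 CPM in ethanol livers and 42.9, 67.4, 141 and 42.5 CPM in control livers (2.27 ± 0.45 log2, adjusted p = 0.00159). Control library 3 was the highest control for Fkbp5, and the lowest ethanol library was 2.03 times above it. The kinase Sgk1 (3.22 log2), the zinc finger factor Zbtb16 (2.80) and Cebpd (2.75) rose, and Tsc22d3, also called GILZ, was at 0.68 ± 0.34 (adjusted p = 0.13). Ddit4, which is also induced by ATF4 and by low oxygen (chromosome 10, 59949669 to 59951834, minus strand), stood at 146, 224, 121 and 148 CPM in ethanol livers, against 3.67, 3.94, 4.37 and 5.05 CPM in control livers (5.23 ± 0.33 log2, adjusted p = 2.20e-07).

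Metallothioneins bind zinc and are induced by zinc, stress and glucocorticoids. Mt2 (chromosome 8, 94172664 to 94173568, plus strand) stood at 644, 1616, 405 and 2209 CPM in ethanol livers, against 4.34, 16.1, 18.9 and 1.05 CPM in control livers (6.92 ± 1.05 log2, adjusted p = 2.61e-04). Mt1, its neighbour (chromosome 8, 94179082 to 94180327, plus strand), stood at 1992, 3552, 1271 and 4759.6 CPM in ethanol livers and 42.4, 84, 375 and 54.4 CPM in control livers (4.38 ± 0.94 log2, adjusted p = 0.00274). Control library 3 was the highest control for both, and without it the difference of Mt1 was 5.58 log2. Of 9 tested genes of metallothioneins and zinc transport 5 rose and 0 fell (3 rose without control library 1 or 4 or ethanol library 1, and 1 fell without ethanol library 2). The zinc importer Slc39a14 rose by 1.72 log2. Of 18 tested genes of iron handling 5 rose and 2 fell (3 rose without control library 1 or ethanol library 4, and 4 fell without control library 2). The balance turned when libraries were scaled by totals alone, with 3 higher and 5 lower. The ferritin heavy chain Fth1, which stores iron, rose by 0.81 log2. The iron hormone gene Hamp stood at 926, 1687, 155 and 2316 CPM in ethanol livers, against 424, 481, 1285 and 911 CPM in control livers, with overlapping groups (adjusted p = 0.463).

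The stretches around the metal response elements of the Mt2 promoter are shown because metallothioneins are the textbook case of this element. The core is spelled TGCACNC or TGCGCNC and was searched on both strands in the 250 bases before the RefSeq start (GRCm38.p6). Each line gives 25 bases with the match in capitals.
Mt2, 223 bases before the start (chr8:94172386-94172410): catcgcctcTGCACCCggcccctcg
Mt2, 128 bases before the start (chr8:94172481-94172505): cagacccttTGCGCTCagctccttt
Mt2, 50 bases before the start (chr8:94172559-94172583): ggggagggcGTGTGCAggctctgtc
Of all promoter windows of this length, 21.4% hold at least 1 such core and 1.26% hold 3 or more, as that of Mt2 does.

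More lipid droplet genes rose than fell, and more genes of fatty acid and sterol synthesis fell than rose. Of 23 tested genes of triglyceride synthesis and lipid droplets 11 rose and 5 fell, with a median of 0.63 log2. Cidec, which fuses lipid droplets into larger ones (chromosome 6, 113424634 to 113435760, minus strand), stood at 112, 74.3, 75.3 and 218 CPM in ethanol livers, against 4.40, 4.80, 4.24 and 4.53 CPM in control livers (4.73 ± 0.45 log2, adjusted p = 5.58e-06). The droplet coat gene Plin4 stood at 27.7, 77, 75.4 and 47.6 CPM in ethanol livers and 7.24, 10.2, 14.4 and 9.87 CPM in control livers (2.45 ± 0.34 log2, adjusted p = 9.81e-05). Control values of Cidec lay within 1 CPM of each other, and the lowest ethanol library was 15.5 times above the highest. The coat genes Plin5 (1.37 log2) and Plin2 (0.98), the lipase inhibitor Hilpda (2.20), the fatty acid importer Cd36 (1.38) and the triglyceride lipase Pnpla2 (1.07) rose. The lipases Lipe (-0.86) and Mgll (-0.69) fell, and Dgat2, the last step of triglyceride synthesis, was at 0.12 ± 0.20 (adjusted p = 0.672).

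Of 20 tested genes of fatty acid synthesis 1 rose and 5 fell, with a median of -0.56 log2. Srebf1, the master regulator of that pathway, fell to 101, 97.6, 103 and 46 CPM in ethanol livers, against 308, 184, 325 and 428 CPM in control livers (-1.84 ± 0.32 log2, adjusted p = 5.47e-04). The desaturases Fads2 (-1.75 log2) and Fads1 (-0.92), the oxysterol receptor Nr1h3 (-0.76) and the glucose-sensing factor Mlxipl (-0.79; not called, at -0.65, without ethanol library 4) fell. The 1 gene that rose, Insig2, holds SREBP proteins back in the endoplasmic reticulum (chromosome 1, 121304353 to 121332589, minus strand). It stood at 815, 820.0, 1072 and 1056 CPM in ethanol livers, against 80.6, 70.5, 98.9 and 108 CPM in control livers (3.39 ± 0.21 log2, adjusted p = 1.16e-07), a 10.5-fold difference with tight groups. Fasn, the fatty acid synthase, stood at 766, 1364, 639.8 and 389 CPM in ethanol livers and 862, 499.8, 1093 and 2359.6 CPM in control livers, and Scd1 at 4050.3, 4313, 3622 and 3786 CPM in ethanol livers and 7059.5, 2957, 5861 and 10192 CPM in control livers. Control libraries spread over several-fold for both, the groups overlapped, and neither was called (adjusted p = 0.407 and 0.242).

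More sterol genes fell than rose. Of 25 tested genes of cholesterol synthesis and SREBP2 control 8 fell and 1 rose, with a median of -0.47 log2 (0 rose without control library 1, 2 or 3 or ethanol library 1 or 2). Insig1, a sterol sensor partner that is itself a SREBP target, fell to 55.6, 74.2, 49 and 51.6 CPM in ethanol livers, against 231, 171, 229.6 and 499 CPM in control livers (-2.29 ± 0.36 log2, adjusted p = 2.52e-04). The groups were apart and control library 4 was the highest. The sterol carrier Stard4 fell too (-0.92 log2).

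**Figure D3:**
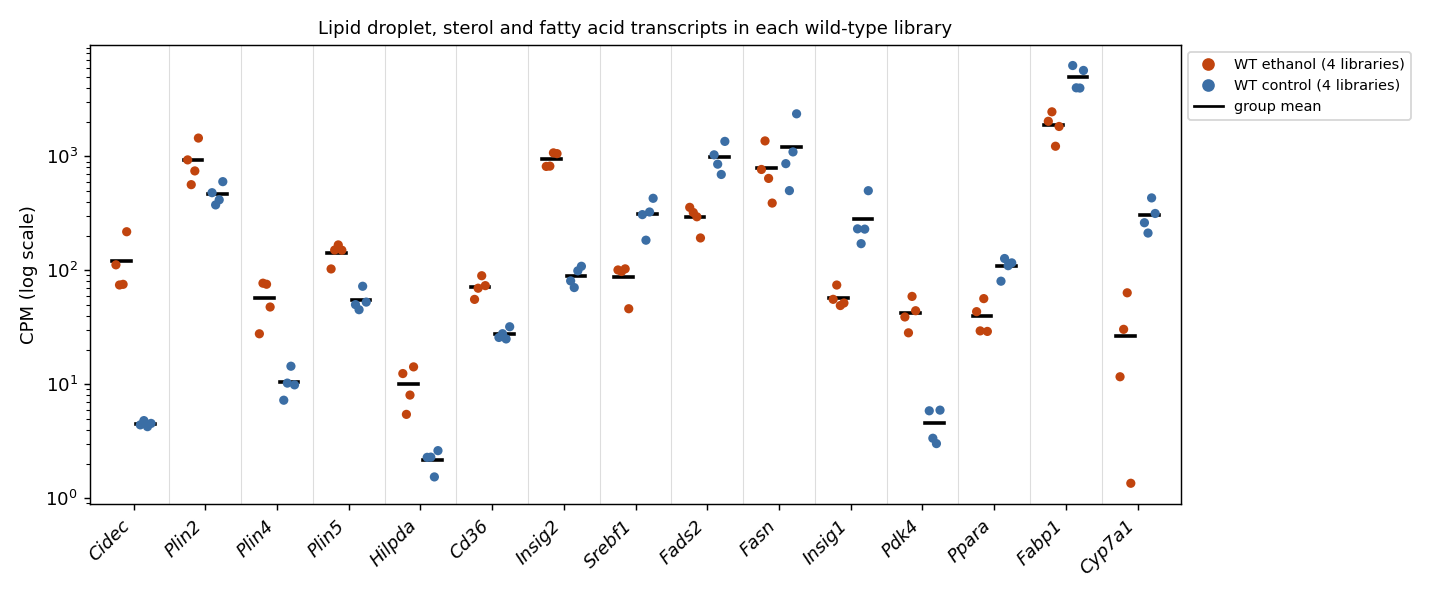
CPM on a log axis in each ethanol (orange, left) and control (blue, right) wild-type library for 15 transcripts of lipid droplets, fatty acid and sterol synthesis, fat oxidation and bile acid synthesis, with a bar at each group mean. Cidec, Insig2 and Pdk4 lie clearly higher and Insig1, Ppara and Cyp7a1 clearly lower in ethanol livers, while the Fasn values overlap.

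Fat oxidation genes moved in both directions. Of 36 tested genes of fatty acid oxidation and PPARα control 6 rose (16.67%, against 17.6% of all genes) and 9 fell (25%, against 15.9%). The median was -0.20 log2. Falls numbered 5 without control library 1 or ethanol library 1, and 15 when libraries were scaled by totals alone. Ppara, the receptor that controls the pathway, fell to 43.3, 29.4, 56.4 and 29.1 CPM in ethanol livers, against 80.2, 127, 109.7 and 116 CPM in control livers (-1.45 ± 0.20 log2, adjusted p = 8.53e-05). The fatty acid carrier Fabp1 fell to 2028, 2456, 1226 and 1827 CPM in ethanol livers, against 6259.8, 3989, 3970.2 and 5668 CPM in control livers (-1.40 ± 0.26 log2, adjusted p = 7.68e-04). Neither showed overlap. The ketone body enzyme Bdh1 (-1.04 log2) and the peroxisomal thiolase Acaa1b (-1.10) fell as well. Pdk4, which blocks glucose oxidation, stood at 38.9, 28.3, 59 and 44.2 CPM in ethanol livers and 5.85, 3.36, 3.01 and 5.92 CPM in control livers (3.23 ± 0.45 log2, adjusted p = 1.22e-04). The thioesterase Acot2 (3.14 log2) and the lipoprotein lipase inhibitor Angptl4 (1.58) rose. The gatekeeper of mitochondrial entry, Cpt1a, was at -0.24 ± 0.13 (adjusted p = 0.171). It was called as lower when libraries were scaled by totals alone (-0.39).

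Lipoprotein and bile acid genes were called in both directions. Of 20 tested lipoprotein genes 3 rose and 3 fell, 15% each, against 17.6% and 15.9% of all genes. The count of falls was 5 without control library 2, with DESeq2 and with voom, and 7 when libraries were scaled by totals alone. Apoa4, an apolipoprotein of large lipid-rich particles, rose by 2.41 ± 0.38 log2 (adjusted p = 2.96e-04), the particle-loading factor Tm6sf2 by 1.08, and the cholesterol exporter Abca1 by 1.30, or 0.70 without ethanol library 4. The phospholipid transfer protein Pltp fell (-1.67 ± 0.33 log2, adjusted p = 0.00139), and Apob was at -0.00 ± 0.15 (adjusted p = 0.998). Of 23 tested bile acid genes 4 rose (17.39%, against 17.6% of all genes) and 6 fell (26.09%, against 15.9%). Cyp7a1, the rate-limiting enzyme of bile acid synthesis (chromosome 4, 6265612 to 6275633, minus strand), fell to 11.6, 30.3, 63.4 and 1.35 CPM in ethanol livers, against 261, 212, 432 and 315 CPM in control livers (-3.52 ± 0.72 log2, adjusted p = 0.00205; -4.41 without ethanol library 3). Ethanol library 4 was the lowest and ethanol library 3 the highest of the group, still below every control. Nr0b2, which encodes the repressor SHP, fell to 7.65, 6.25, 10.8 and 3.66 CPM in ethanol livers, against 44.9, 36.6, 10.6 and 35.1 CPM in control livers (-2.17 ± 0.59 log2, adjusted p = 0.0121), and control library 3 lay within the ethanol range. The importer Slco1b2 (-1.01 log2) and the FGF receptor Fgfr4 (-0.56) fell, and the basolateral exporters Abcc3 and Abcc4 rose. The export pump Abcb11 was at -0.06 ± 0.15 log2 (adjusted p = 0.779), and Cyp8b1 at -0.82 ± 0.35 (adjusted p = 0.0834; called, at -1.01, without control library 2).

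Most genes of glucose output and insulin action were not called. Of 20 tested members 3 rose (15%, against 17.6% of all genes) and 1 fell (0 fell without control library 1, 2 or 4 or ethanol library 2 or 4). Igfbp1, a secreted binding protein that insulin represses, stood at 2391, 1072, 1235 and 1661 CPM in ethanol livers, against 63.6, 157, 20.5 and 73.1 CPM in control livers (4.34 ± 0.68 log2, adjusted p = 3.24e-04). Foxo1, the factor through which insulin represses it, stood at 109, 116, 117 and 117 CPM in ethanol livers and 71.5, 58.9, 42.7 and 49.4 CPM in control livers (1.04 ± 0.19 log2, adjusted p = 5.85e-04). Both had separate groups. The gluconeogenic enzymes Pck1 (0.40 ± 0.33 log2, adjusted p = 0.372) and G6pc (0.28 ± 0.63, adjusted p = 0.763) were not called.

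Male-typical liver genes fell and growth hormone signalling genes fell in part. Pulsatile growth hormone, acting through STAT5, maintains the male pattern of mouse liver. Of 21 tested male-biased genes 0 rose and 9 fell, with a median of -1.43 log2. Mup21 fell to 7.91, 17.1, 11.6 and 5.63 CPM in ethanol livers, against 252, 253, 176 and 164 CPM in control livers (-4.32 ± 0.67 log2, adjusted p = 2.93e-04). Keg1, an acyltransferase family member, fell to 15.8, 26.8, 20.8 and 9.07 CPM in ethanol livers, against 191, 258, 153 and 196 CPM in control livers (-3.46 ± 0.55 log2, adjusted p = 3.47e-04). Of 16 tested female-biased genes 4 rose (Cux2, Cyp2b9, Cyp2b13 and Fmo4, the last at 0.46 log2 and not called, at 0.38 to 0.43, without control library 2 or 3 or ethanol library 2 or 3) and 0 fell (1 fell without control library 2 or ethanol library 3). Cux2, a female-specific transcription factor in mouse liver, stood at 44.9, 23.3, 7.91 and 6.42 CPM in ethanol livers, against 0.501, 0.426, 1.29 and 0.465 CPM in control livers (4.96 ± 1.26 log2, adjusted p = 0.00837; 4.23 without ethanol library 1). Cyp2b9 stood at 19.2, 0.313, 15.9 and 2.42 CPM in ethanol livers and 1.11, 0.160, 0.369 and 0.0581 CPM in control livers, and ethanol library 2 lay within the control range. Its difference of 4.46 log2 was 3.85 without ethanol library 1 and 5.59 without control library 1. Cyp2b13 was at 0.517, 0, 0.773 and 0.338 CPM in ethanol livers and at 0 CPM in all 4 controls, 29 reads in total over the wild-type libraries. Cyp2b9 and Cyp2b13 were also counted in the CAR and PXR list. Of 11 tested genes of growth hormone signalling 3 fell, namely the receptor Ghr (-0.99 ± 0.20 log2, adjusted p = 0.00141), the IGF carrier subunit Igfals (-1.29) and the receptor Lifr (-1.05), and 0 rose (1 without control library 4). Igf1 itself was at 0.24 ± 0.19 (adjusted p = 0.351).

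Clock genes shifted in opposite directions. Liver clock transcripts follow the hour of the day and the time of feeding, neither of which the labels give, so a difference in sampling or feeding time cannot be told apart from the diet. Of 22 tested clock genes 8 rose and 6 fell. Dbp, an output factor of the clock, fell to 33.5, 20.8, 16.8 and 16.6 CPM in ethanol livers, against 126, 90.8, 75.5 and 87.8 CPM in control livers (-2.12 ± 0.30 log2, adjusted p = 1.12e-04), and the repressor Nr1d1 fell by 0.90 log2. Nfil3, which opposes Dbp at its target sites, rose by 1.78 log2, the repressor Ciart by 1.65 and the activator Arntl by 1.36. Npas2 rose by 3.27 log2, or 5.31 without control library 4, with control values of at most 0.348 CPM.

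Secreted defence proteins gave a mixed picture, and the median of the acute-phase genes depended most on ethanol library 4. Of 28 tested acute-phase genes 13 rose and 2 fell, with a median of 1.14 log2. Without ethanol library 4 the counts were 8 and 2 and the median was 0.44, and without control library 4 the count of rises was 8. Without control library 3 the count of falls was 1. Saa1, the major serum amyloid, stood at 21.2, 101, 12.3 and 3813 CPM in ethanol livers, against 64.5, 221, 506 and 33.5 CPM in control livers (2.26 ± 1.53 log2, adjusted p = 0.278). Saa2 followed the same order. Ethanol library 4 held the high values, and the other 3 ethanol libraries lay within or below the control range. Lcn2, a siderophore-binding protein of neutrophils and stressed hepatocytes (chromosome 2, 32384633 to 32388252, minus strand), stood at 103, 339.9, 133 and 2236 CPM in ethanol livers and 4.57, 11.5, 41.6 and 3.95 CPM in control livers (5.52 ± 1.44 log2, adjusted p = 0.00974; 3.65 without ethanol library 4 and 6.71 without control library 3). Orm3, an acid glycoprotein, stood at 35.4, 55, 36.4 and 66.5 CPM in ethanol livers and 1.28, 0.426, 0.922 and 0.232 CPM in control livers (6.07 ± 0.47 log2, adjusted p = 1.16e-06), with all ethanol libraries high. Hp, haptoglobin, was at 0.72 ± 0.39 log2 (adjusted p = 0.164), and Saa4, the constitutive serum amyloid, fell by 1.44 log2.

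Of 7 receptors and factors on the acute-phase list, grouped by role after their values were seen, 5 rose. Il1r1, the interleukin 1 receptor (chromosome 1, 40225080 to 40317257, plus strand), stood at 261, 712, 199 and 1069.6 CPM in ethanol livers, against 36, 84.6, 45.6 and 27.2 CPM in control livers (3.53 ± 0.52 log2, adjusted p = 1.99e-04). The interleukin 6 receptor Il6ra (0.85 log2), Stat3 (0.96), Cebpb (1.27) and Cebpd (2.75) rose too. The shared signalling subunit Il6st was at -0.01 ± 0.16 log2 (adjusted p = 0.977) and the feedback inhibitor Socs3 at 0.34 ± 0.80 (adjusted p = 0.775). Of 24 tested NF-κB targets and chemokines 5 rose and 2 fell (3 rose without control library 1 or 4 or ethanol library 4). The endotoxin coreceptor Cd14 (2.71 ± 0.74 log2, adjusted p = 0.0122) and the feedback inhibitor Tnfaip3 (1.35) rose, and the chemokines Cxcl12 (-1.73 ± 0.14, adjusted p = 7.67e-07) and Cxcl9 (-1.65) fell. Il1b was at 0.17 ± 0.42 (adjusted p = 0.796) and Cxcl1, which draws neutrophils, at 1.88 ± 0.91 (adjusted p = 0.127). Tnf and Il6 were too low to be tested.

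More complement and coagulation genes fell than rose. Of 32 tested members 17 fell and 2 rose (1 without control library 1 or 4 or ethanol library 4), with a median of -0.32 log2. The terminal component gene C6 fell to 101, 145, 87.6 and 118 CPM in ethanol livers, against 367, 536, 415 and 407 CPM in control livers (-1.93 ± 0.25 log2, adjusted p = 4.51e-05). C9, which forms the pore, fell to 231, 256, 283 and 284 CPM in ethanol livers, against 619.5, 716, 629 and 602 CPM in control livers (-1.28 ± 0.19 log2, adjusted p = 9.23e-05). The groups were apart and tight in both, ethanol library 4 included. The factor B gene Cfb (-1.20 log2), C8a (-1.03), C8b (-0.75), the C5 gene Hc (-0.66), the mannose-binding lectin Mbl2 (-0.96), coagulation factor F11 (-1.04) and the kallikrein gene Klkb1 (-0.96) fell. C6, C8a and C8b were also counted among the male-biased genes.

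**Figure D4:**
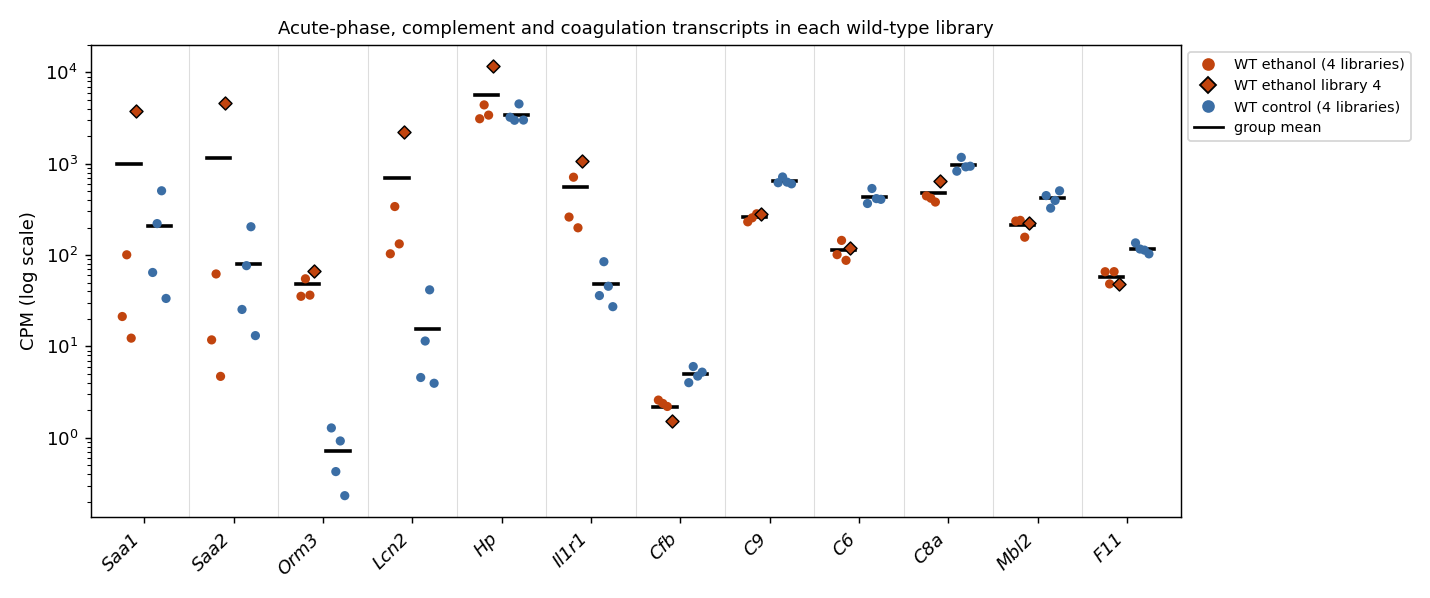
CPM on a log axis in each ethanol (orange, left) and control (blue, right) wild-type library for 12 transcripts of secreted defence proteins and Il1r1, with a bar at each group mean and ethanol library 4 as a diamond. Ethanol library 4 stands far above its group for Saa1, Saa2, Lcn2 and Hp, while all ethanol libraries are high for Orm3 and low for Cfb, C9, C6, C8a, Mbl2 and F11.

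Markers of macrophages and lymphocytes were lower after ethanol, and those of sinusoidal endothelium were higher. In whole liver, fewer cells of a type and less RNA per cell cannot be told apart. Of 14 tested markers of Kupffer cells, the resident macrophages, 7 fell and 0 rose, with a median of -0.76 log2. Each library was given a score per list, its log2 expression relative to the control average, taken as the median over members. Scores were -0.96 to -0.58 in ethanol livers, against -0.19 to 0.32 in control livers. Adgre1, which encodes F4/80, fell to 2.74, 3.19, 1.90 and 3.49 CPM in ethanol livers, against 8.58, 13.2, 7.44 and 10.1 CPM in control livers (-1.79 ± 0.32 log2, adjusted p = 6.00e-04). The lectin Clec4f, a Kupffer cell marker in mouse, fell to 28.9, 25, 27.2 and 34.2 CPM in ethanol livers, against 52.2, 64.8, 48.9 and 56.7 CPM in control livers (-0.95 ± 0.19 log2, adjusted p = 0.00143). The groups were apart in both. Cd5l (-1.43 log2), Vsig4 (-1.01) and the receptor Csf1r (-1.21) fell, and the complement gene C1qa was at -0.46 ± 0.30 (adjusted p = 0.256).

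Of 12 tested markers of monocytes and recruited macrophages 6 fell and 1 rose (3 fell without control library 2), with a median of -1.59 log2. The lysozyme Lyz2 fell to 13.2, 12.3, 12.6 and 15.3 CPM in ethanol livers, against 35.6, 45.1, 27.6 and 31.1 CPM in control livers (-1.39 ± 0.31 log2, adjusted p = 0.00359), and the chemokine receptor Ccr2 fell to 0.569, 0.313, 0.714 and 0.901 CPM in ethanol livers, against 1.89, 4.10, 1.78 and 1.86 CPM in control livers. Cd68 was at -0.28 ± 0.32 log2 (adjusted p = 0.521). Control library 2 had the highest control value of Ccr2 and of Cd68, and the highest control score for Kupffer cells, monocytes, endothelium and stellate cells. Of 9 tested lymphocyte markers 6 fell and 0 rose, with a median of -1.5 log2, among them Cd4 (-2.49 ± 0.39 log2, adjusted p = 1.73e-04), the immunoglobulin gene Ighm (-1.87) and Ptprc, which encodes the leukocyte antigen CD45 (-1.17). All 3 stood below 10 CPM in every library. A gene high enough in 1 of the 4 groups alone was tested, so low markers may be kept for their control or knockout values. Tests covered 9 of 17 lymphocyte and 12 of 14 monocyte markers, and the counts describe those alone. The fit of the 8 wild-type libraries alone gave 3 falls in each list. Its medians, over members tested there, were -0.755 log2 for monocyte and -1.875 for lymphocyte markers. Of 9 tested genes of antigen presentation 3 fell and 1 rose (0 rose without control library 1 or ethanol library 4, 1 fell without control library 4 or ethanol library 1, and 5 without ethanol library 4), and Cd74, the invariant chain, was at -0.72 ± 0.34 log2 (adjusted p = 0.118). Of 8 tested neutrophil markers 1 rose, Lcn2, which hepatocytes also express, and 0 fell (1 without ethanol library 4). S100a8 was at 1.05 ± 0.55 log2 (adjusted p = 0.152) and S100a9 at 0.66 ± 0.60 (adjusted p = 0.416), both under 5 CPM in every library, and 9 of the 17 neutrophil markers were too low to be tested.

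Of 40 tested interferon-stimulated genes 0 rose and 9 fell, or 22.5% against 15.9% of all genes (5 without control library 1 or ethanol library 2, and 6 without ethanol library 4), with a median of -0.70 log2. Library scores were -0.97 to -0.29 in ethanol livers, against -0.09 to 0.15 in control livers, and did not overlap. The number called as lower depended on the fit. It was 21 in the fit of the 8 wild-type libraries alone, and 12 or 13 when libraries were scaled by totals alone, with DESeq2, with voom and with the replicate block. Irf1, a transcription factor of the response, fell to 14.9, 16.8, 17.3 and 14.4 CPM in ethanol livers, against 30.5, 18.9, 35 and 24.2 CPM in control livers (-0.78 ± 0.22 log2, adjusted p = 0.0136), and the immunoproteasome subunit Psmb8 fell by 0.86 log2. Isg15, a ubiquitin-like effector, was at -1.11 ± 0.68 (adjusted p = 0.229), with groups apart, and was called in the fit of the 8 wild-type libraries alone (adjusted p = 0.00354).

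Of 19 tested markers of sinusoidal endothelium, the fenestrated lining of the liver capillaries, 8 rose and 1 fell, with a median of 0.37 log2. Library scores were 0.32 to 0.39 in ethanol livers, against -0.17 to 0.42 in control livers, where control library 2 alone reached the ethanol range. Lyve1, a hyaluronan receptor, stood at 20.2, 30.01, 38.4 and 28.9 CPM in ethanol livers, against 7.35, 6.13, 3.32 and 2.38 CPM in control livers (2.61 ± 0.36 log2, adjusted p = 1.02e-04). Wnt9b, one of the signals by which endothelium maintains pericentral hepatocytes (chromosome 11, 103727364 to 103749821, minus strand), stood at 3.21, 4.44, 5.65 and 4.79 CPM in ethanol livers and 0.835, 1.23, 1.35 and 0.755 CPM in control livers (2.11 ± 0.37 log2, adjusted p = 4.41e-04). Bmp2, the endothelial signal that sustains hepcidin, stood at 33.2, 38.8, 36.6 and 37.2 CPM in ethanol livers and 9.24, 15.1, 8.98 and 10.5 CPM in control livers (1.73 ± 0.24 log2, adjusted p = 7.15e-05). In all 3 the groups were separate, with the lowest ethanol library 2.20 to 2.74 times above the highest control. Wnt2 (1.30 log2) and the adhesion genes Cdh5 (1.05) and Pecam1 (0.85) rose, the Fc receptor Fcgr2b fell (-0.88), and the scavenger receptor Stab2 was at 0.17 ± 0.18 (adjusted p = 0.488).

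Of 20 tested markers of stellate cells and fibroblasts 8 rose and 1 fell (0 fell without control library 1 or 2 or ethanol library 1, 3 or 4). The growth factor receptor Pdgfra stood at 14, 10.6, 13 and 20.7 CPM in ethanol livers, against 5.79, 6.34, 4.55 and 4.36 CPM in control livers (1.47 ± 0.25 log2, adjusted p = 3.36e-04), and Hand2 (1.15 log2), the growth factor Hgf (1.15), the basement membrane collagen Col4a1 (1.35) and decorin Dcn (0.72) rose. Scores were 0.26 to 0.79 in ethanol livers, against -0.30 to 0.53 in control livers, and control library 2 was again within the ethanol range. The activation markers Acta2 (0.18 ± 0.80 log2, adjusted p = 0.886) and Col1a1 (-0.63 ± 0.59, adjusted p = 0.439) were not called. Of 7 tested red cell and platelet markers 1, the erythroid heme enzyme Alas2, fell (-1.02 log2; not called without the filter on low counts, adjusted p = 0.0569), and the 4 haemoglobin genes were not called. Of 15 tested cholangiocyte markers 1 rose and 0 fell (0 rose without control library 2 or 4 or ethanol library 3 or 4). Their library scores were -0.56 to -0.30 in ethanol livers, against -0.18 to 0.30 in control livers. Spp1, osteopontin, was at -0.84 ± 0.40 log2 (adjusted p = 0.12).

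**Figure D5:**
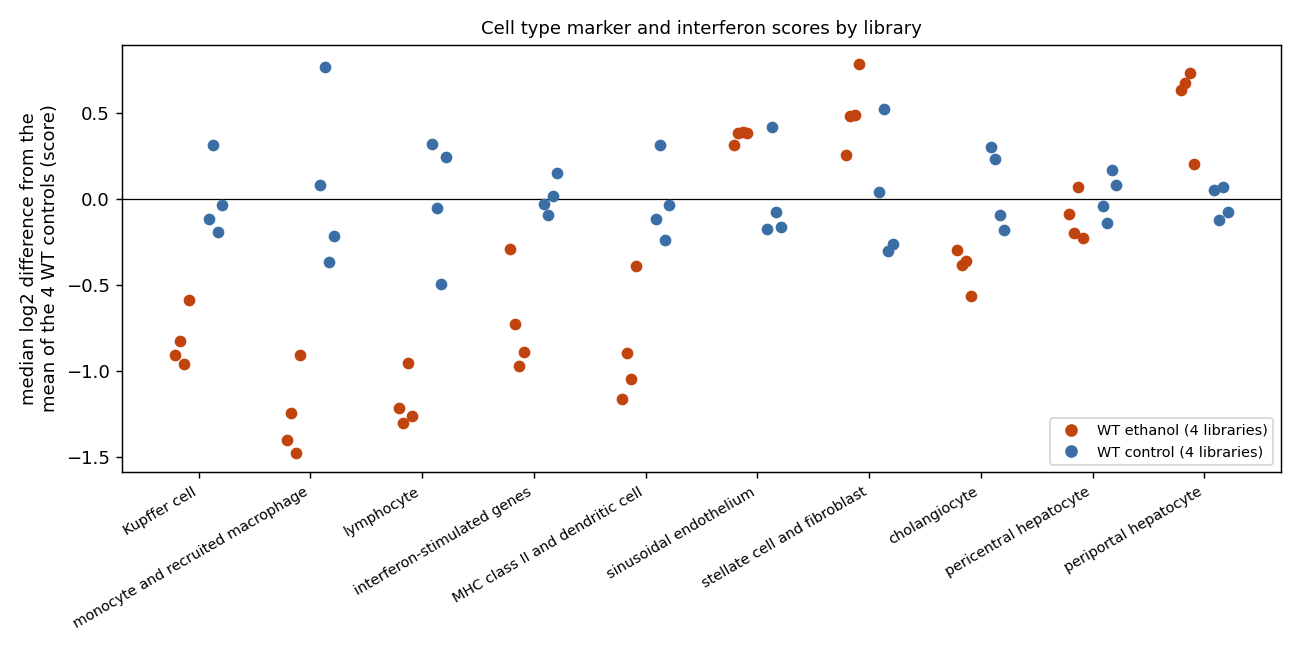
Score of each marker list in each ethanol (orange, left) and control (blue, right) wild-type library, on a log2 scale where 0 is the mean of the 4 controls. Kupffer cell, monocyte, lymphocyte and interferon scores are below every control in all 4 ethanol libraries, and control library 2 reaches the ethanol range for endothelial and stellate scores.

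Hepatocyte zones changed in part. Periportal hepatocytes carry out urea synthesis and amino acid breakdown, and pericentral hepatocytes glutamine synthesis and most drug metabolism. Of 17 tested periportal markers 8 rose and 1 fell (0 fell without any 1 of 6 libraries, control 1, 3 and 4 and ethanol 1, 2 and 4, and 2 without control library 2 or ethanol library 3). Cps1, the entry enzyme of the urea cycle, stood at 6281, 6179, 6871 and 6909.6 CPM in ethanol livers, against 2666, 3179, 4095 and 3316 CPM in control livers (0.98 ± 0.17 log2, adjusted p = 4.78e-04). Ass1 (0.83 log2), Asl (0.98) and Arg1 (1.06), later enzymes of the cycle, and the serine dehydratase Sds (1.55) rose. Of 19 tested pericentral markers 4 rose (21.05%, against 17.6% of all genes) and 5 fell (26.32%, against 15.9%). The count of rises was 2 without control library 1 or 4 or ethanol library 3. Among the Wnt target genes of the list Lgr5 and Rnf43 fell, Lgr5 to 2.95, 1.88, 5.65 and 0.958 CPM in ethanol livers, against 6.57, 5.33, 9.65 and 9.35 CPM in control livers (-1.43 ± 0.38 log2, adjusted p = 0.009), and Rnf43 with a difference of -1.31 log2. Other Wnt targets of the list are not reported here. Ethanol library 3 reached into the control range for Lgr5. Gulo, which makes vitamin C in mice (-0.99 log2), and Rgn of the same pathway (-0.92) fell, and the cation transporter Slc22a3 rose (1.73). Glul, the glutamine synthetase, was at -0.29 ± 0.29 (adjusted p = 0.463).

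Among general hepatocyte markers Cebpa, a factor that maintains the mature state, fell to 172, 126, 244 and 143 CPM in ethanol livers, against 507, 506, 558 and 566 CPM in control livers (-1.64 ± 0.18 log2, adjusted p = 1.08e-05). The secreted protein gene Ahsg rose by 0.59 log2 and the tryptophan dioxygenase Tdo2 by 0.86. Alb was at 0.21 ± 0.22 (adjusted p = 0.488).

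Mitochondrially encoded transcripts made up 5.47 ± 0.316% of all counts in ethanol livers, against 3.79 ± 0.305% in control livers (SD, n = 4 each). Of 11 tested transcripts 6 rose and 0 fell (3 rose without control library 4). The complex I subunit mt-Nd1 stood at 6521, 9219, 8394 and 10384 CPM in ethanol livers, against 5090.0, 4629, 4373 and 4202 CPM in control livers (0.92 ± 0.20 log2, adjusted p = 0.00264), and the cytochrome oxidase subunit mt-Co1 rose by 0.73 log2. Of 59 tested nuclear genes of oxidative phosphorylation 0 rose and 10 fell, or 16.95% against 15.9% of all genes, and that count was 4 to 6 without control library 1 or 4 or ethanol library 1 or 4, 18 without control library 2, and 27 when libraries were scaled by totals alone.

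Of 79 tested cytosolic ribosomal protein genes 1 rose, Rpl3 (0.38 log2), and 1 fell, Rps21 (-0.39), with all differences between -0.53 and 0.41 log2. Many of these genes have near-identical pseudogenes, so their counts are uncertain. The call of Rpl3 was lost without control library 3 or 4 or ethanol library 3 or 4 (0.25 to 0.36), and that of Rps21 without any 1 of 6 libraries, control 1, 2 and 4 and ethanol 1, 3 and 4 (-0.42 to -0.28). The counts were 3 higher without control library 1, 2 higher without ethanol library 1 and 2 lower without ethanol library 2, and 0 higher and 4 lower when libraries were scaled by totals alone. Of 30 tested genes of ribosome biogenesis 14 rose and 3 fell, with a median of 0.37 log2, or 7 and 4 when libraries were scaled by totals alone. Nop58, a core protein of small nucleolar particles, stood at 80.8, 55, 57.6 and 119 CPM in ethanol livers, against 28.3, 40.5, 41.5 and 35.6 CPM in control livers (1.10 ± 0.21 log2, adjusted p = 8.89e-04), and the nuclease Nob1, which matures the small subunit, rose by 0.74. Dkc1, the pseudouridine synthase, fell by 0.81 log2 with groups apart.

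Tsc1 is the gene removed in the knockout arm of the series, and its product restrains mTORC1, the kinase that drives growth. In wild type Tsc1 (chromosome 2, 28641228 to 28691167, plus strand) fell to 19.2, 19.8, 18.7 and 15.8 CPM in ethanol livers, against 24.3, 27.6, 24.9 and 29.7 CPM in control livers (-0.53 ± 0.13 log2, adjusted p = 0.00487), and no ethanol library reached the lowest control. Of 21 tested genes of the mTORC1 pathway 4 rose and 6 fell, with a median of -0.04 log2 (0.016 without ethanol library 4 and 0.059 without control library 2). The inhibitors moved apart: Ddit4 and Sesn2 rose, and Deptor (-0.67 ± 0.13 log2, adjusted p = 0.00118) and Sesn3 (-0.64) fell. The translation repressor Eif4ebp1 rose by 0.67 log2. Of 34 tested lysosomal genes and TFEB targets 5 rose and 5 fell (3 fell without control library 1 or 2 or ethanol library 4), and of 37 autophagy genes 4 rose and 6 fell, against 33.5% called of all genes. With libraries scaled by totals alone the counts were 3 higher and 7 lower for the lysosomal list and 2 higher and 8 lower for autophagy.

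The response of the hepatic Tsc1 knockout was set beside that of the wild type. A test of the difference between the responses, knockout minus wild type, called 259 of 14346 genes (1.81%), 75 positive (0.523%) and 184 negative (1.28%). The count was 53 without wild-type control library 1, 79 without 3 and 56 without 4. It was 150, 495 and 139 without wild-type ethanol library 1, 3 and 4. Without knockout control libraries 1 to 4 it was 88, 126, 119 and 85, and without knockout ethanol library 4 it was 156. Among the genes described above, 8 kept this call in every one of these fits: Ddit4, Insig2, Il1r1, Cebpd, Cebpb, Ciart, Hsph1 and Cxcl12.

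Ddit4 rose in both genotypes, by 1.39 ± 0.27 log2 in the knockout and by 5.23 ± 0.33 in the wild type, and the difference between the responses was -3.83 ± 0.41 log2 (adjusted p = 9.18e-04). Its knockout values were 38.8, 62.4, 32.8 and 79.99 CPM after ethanol and 19.3, 20.1, 28.1 and 14.1 CPM on control diet, and every knockout control lay above every wild-type control. Insig2 rose by 1.69 ± 0.19 log2 in the knockout and 3.39 ± 0.21 in wild type (difference -1.70 ± 0.27, adjusted p = 0.00651). Il1r1 stood at 30.8, 31.7, 36.4 and 27.9 CPM in knockout livers after ethanol and 39.95, 45.7, 82.2 and 41.6 CPM in knockout livers on control diet, with a difference between the responses of -4.26 ± 0.70 log2 (adjusted p = 0.012). None of the 4 knockout ethanol libraries reached the lowest wild-type ethanol library for these 3 genes.

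The stress factors Cebpd and Cebpb and the clock repressor Ciart were at 0.67 ± 0.22, -0.28 ± 0.18 and -0.49 ± 0.23 log2 in the knockout (adjusted p = 0.0484, 0.311 and 0.162), against 2.75 ± 0.22, 1.27 ± 0.18 and 1.65 ± 0.22 in wild type, with differences of -2.08 ± 0.31, -1.55 ± 0.25 and -2.14 ± 0.32 log2 (adjusted p = 0.00445, 0.00722 and 0.00445). Hsph1 was at 0.25 ± 0.21 log2 in the knockout (adjusted p = 0.459), against -1.45 ± 0.22 in wild type (difference 1.70 ± 0.30, adjusted p = 0.0152). Cxcl12 fell in both genotypes, at -0.69 ± 0.14 log2 in the knockout and -1.73 ± 0.14 in wild type (difference 1.03 ± 0.20, adjusted p = 0.02). Further differences depended on single libraries. Gdf15 was at 0.13 ± 0.57 log2 in the knockout (difference -4.70 ± 0.88, adjusted p = 0.0235; -4.08 without knockout control library 3), Btg2 at 0.47 ± 0.45 (difference -3.60 ± 0.66, adjusted p = 0.0226) and Cdkn1a at 3.03 ± 0.46 (difference -3.34 ± 0.67, adjusted p = 0.0267). The calls of all 3 were lost without wild-type control library 1, 3 or 4, with differences of -4.71 to -4.48, -3.57 to -3.47 and -3.30 to -3.12 log2. The call of Cdkn1a was also lost without knockout control library 1 or 3 or wild-type ethanol library 4 (-3.42 to -2.91).

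In the opposite direction, Etnppl rose in the knockout (1.19 ± 0.28 log2, adjusted p = 0.0126) and fell in wild type (-0.92 ± 0.28, adjusted p = 0.0205). Its fall was not called, at -0.81 to -0.76, without control library 2 or ethanol library 1 or 4. The difference between the responses was 2.1 ± 0.40 log2 (adjusted p = 0.0226, or 0.0528 without the filter on low counts). The constitutive chaperone Hspa8 rose in the knockout (1.39 ± 0.23 log2) and was at -0.18 ± 0.22 in wild type, with a difference of 1.57 ± 0.32 (adjusted p = 0.0247). That call was lost without knockout control library 4 or wild-type control library 1 or 4 (1.51 to 1.63). The differences of Lyz2 (1.97 log2), Vsig4 (1.27), the kinase gene Dclk3 (1.78) and the cytoplasmic actin Actg1 (-3.37) were called with all libraries and lost when any 1 of 8 to 11 single libraries was left out. Where the call was lost, they stood at 1.82 to 2.07 for Lyz2, 1.14 to 1.35 for Vsig4, 1.67 to 1.77 for Dclk3 and -3.51 to -3.13 for Actg1, which was at -2.36 without knockout control library 3.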

How the data were processed

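PolyA RNA of mouse liver was sequenced in 16 stranded libraries as 75-base single reads on an Illumina NextSeq, per the labels' protocols. The authors deposited raw read counts per Ensembl gene (GRCm38). Trimmomatic 0.36, HISAT2 2.1.0 and HTSeq are named in the submitters' processing notes. The strand setting used in counting is not stated there or in the labels. The labels do not say whether libraries came from separate animals, so p-values measure only the spread between these libraries. The authors also deposited a table with a log2 fold change and p-values per gene for this comparison, which is quoted once and not otherwise used, and how those p-values were made is not stated in its header. Of 55487 rows, 7436 without a symbol (0.227 to 0.479% of counts) were left out.

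Counts were tested with edgeR 4.0.16 (R 4.3.3) by its quasi-likelihood test, on all 16 libraries in 4 groups with TMM scaling, after filterByExpr, which left 14346 genes, and p-values were adjusted by Benjamini-Hochberg over all of them. The step was tested on simulated data. Alternatives were DESeq2 1.42.0, limma 3.58.1 (voom with quality weights), other scaling, no filter, a replicate block, the 8 wild-type libraries alone, a fold threshold and leaving out each library. CPM were computed with TMM-scaled totals. Values near 1 CPM rest on few reads, so counting error alone makes them imprecise.

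The members, lists and named genes were chosen with earlier results of these data known. Named genes were the 12 largest rises and falls among called genes with separate groups and a mean of at least 5 CPM, up to 4 called and 2 uncalled members of each list, the largest differences between genotypes, and Tsc1. Further list members were named for their role, after their values were seen. Some genes that the rule takes in are not reported here. Locations are from GENCODE M21 (GRCm38), where 19 of 248 named genes share exon sequence with a gene on the same strand and 56 with one on the other strand. Promoters are RefSeq GRCm38.p6.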

Additional observations from a re-analysis of the deposited data

Results flagged for a closer look

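One library lay far from the other 3 of its group in 39 of 498 gene and group pairs looked at by Dixon's test of the gap to the nearest library. Chance gives this in about 1 in 20 groups. Ethanol library 1 stood above its group for Nr1i2 (159.8 CPM), and below its group for Foxo1 (109 CPM). Ethanol library 2 stood above its group for Acaa1b (466 CPM). Ethanol library 3 stood above its group for Lama3 (2.02 CPM), Sult1d1 (583 CPM), Abcc4 (40.5 CPM), Hspa8 (368 CPM) and Ass1 (1843 CPM), and below its group for Tbx3os1 (0.892 CPM), Slc38a2 (348 CPM) and Mbl2 (157 CPM). Ethanol library 4 stood above its group for Lcn2 (2236 CPM), Abca1 (978 CPM), Saa1 (3813 CPM), Saa2 (4596 CPM), Hp (11717 CPM) and Dcn (230.3 CPM), and below its group for Srebf1 (46 CPM) and Abcb11 (376 CPM). Control library 1 stood above its group for Tbx3os1 (21 CPM), Gadd45a (7.74 CPM) and Psmb8 (28.6 CPM). Control library 2 stood above its group for Atf3 (4.58 CPM), Slc38a2 (268 CPM), Jun (30.9 CPM), Cd14 (4.53 CPM), Ccr2 (4.10 CPM), Cd68 (9.01 CPM), Wnt2 (3.36 CPM), Fcgr2b (45.2 CPM) and Acta2 (7.67 CPM), and below its group for Mgll (304 CPM). Control library 3 stood above its group for Cux2 (1.29 CPM), Nnmt (195 CPM), P4hb (1549 CPM), Mt1 (375 CPM), Saa4 (861 CPM) and Hp (4518 CPM), and below its group for Hsd3b2 (45.5 CPM).

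The ethanol response of 28 genes named above differed between genotypes in edgeR's quasi-likelihood test of the difference, knockout minus wild type, after Benjamini-Hochberg adjustment over all tested genes. It was lower in the knockout for Gdf15 (-4.70 log2), Il1r1 (-4.26 log2), Ddit4 (-3.83 log2), Btg2 (-3.60 log2), Actg1 (-3.37 log2), Cdkn1a (-3.34 log2), Chac1 (-2.96 log2), Trp53inp1 (-2.74 log2), Gadd45b (-2.41 log2) and Plin4 (-2.30 log2), and also for Ciart (-2.14 log2), Slc39a14 (-2.1 log2), Cebpd (-2.08 log2), Hilpda (-2.03 log2), Insig2 (-1.70 log2), Tat (-1.58 log2), Nfil3 (-1.57 log2), Cebpb (-1.55 log2) and Foxo1 (-1.12 log2). It was higher in the knockout for Etnppl (2.1 log2), Lyz2 (1.97 log2), Dclk3 (1.78 log2), Hsph1 (1.70 log2), Hspa8 (1.57 log2), Vsig4 (1.27 log2), Cebpa (1.05 log2), Cxcl12 (1.03 log2) and Fcgr2b (0.82 log2). Over 22 alternatives, counting each library left out, 8 of these kept the call in all and 20 lost it in some. The number of alternatives that lost it was 1 for Etnppl, 3 for Btg2, Gdf15, Hilpda and Hspa8, 5 for Tat, 6 for Plin4, 7 for Cdkn1a and Nfil3, 9 for Dclk3, 10 for Gadd45b, 12 for Lyz2 and Vsig4, 13 for Actg1 and Fcgr2b, 14 for Cebpa, 15 for Chac1 and Trp53inp1, 16 for Foxo1 and 18 for Slc39a14. None of these differences changed sign where the call was lost. With the replicate block the calls of Foxo1 (adjusted p = 0.0628) and Slc39a14 (adjusted p = 0.0528) were lost.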

How the results depend on the processing

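The number of genes called for ethanol in wild type moved by less than 1.5 times with the tool or the scaling. The count of 4811 was 4818 with DESeq2 size factors in edgeR, 4616 with library totals, 4153 without a filter on low counts, 4177 with the 8 wild-type libraries alone, 5103 with DESeq2 and 5081 with voom, and no gene called in both changed sign. Against a fold change of 1.5 (glmTreat) it was 1118, since that test asks for more than a difference from 0. Leaving out 1 library gave 3890 (without control library 4) to 4627 calls. The labels do not say whether replicate numbers pair the libraries. Over all tested genes, the deviations of same-numbered wild-type libraries correlated at -0.049 to 0.02, and those of other ethanol and control pairs at -0.177 to 0.13. Such values cannot exclude a pairing that affects only part of the genes. With the replicate block the count was 4877, and 3587 in the 8 wild-type libraries with the block, an alternative chosen after seeing the data. Of 205 named genes that were called, 188 kept the call in all of these but the fold threshold, and none reversed. Atf3, Cyp7a1, Egr1, Fgf21, Hmox1, Lcn2, Nr0b2 and Psat1 lost it only in the 8 wild-type libraries with the block.

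The 259 differences between genotypes were 101 with library totals, 761 with DESeq2 and 545 with voom, and 53 to 495 with 1 library left out, as given above. The cause was not tested. At 16.625 to 21.757 M counts per wild-type library, genes under about 1 CPM, such as Cyp2b13, rest on few reads.

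Beside the list counts given above, others moved by over 1.5 times and at least 2 genes. With library totals alone the count was 5 lower instead of 3 for growth hormone signalling, 3 higher instead of 5 for NF-κB targets and chemokines, 4 higher instead of 7 for general hepatocyte markers, 4 lower instead of 2 for general hepatocyte markers and 4 lower instead of 1 for periportal markers. With DESeq2 the count was 8 higher instead of 4 for female-biased genes, 4 lower instead of 2 for iron handling and 5 lower instead of 3 for antigen presentation. With voom the count was 3 lower instead of 5 for lysosomal genes and 6 lower instead of 3 for antigen presentation. With the 8 wild-type libraries alone the count was 2 lower instead of 4 for the methionine cycle, 3 higher instead of 1 for fatty acid synthesis, 15 lower instead of 9 for male-biased genes, 3 higher instead of 5 for iron handling, 1 lower instead of 3 for ribosome biogenesis, 3 lower instead of 5 for lysosomal genes, 3 lower instead of 6 for monocyte markers, 3 lower instead of 6 for lymphocyte markers and 6 lower instead of 3 for antigen presentation. With the replicate block the count was 5 lower instead of 3 for growth hormone signalling, 8 higher instead of 4 for female-biased genes, 2 higher instead of 4 for pericentral markers and 5 lower instead of 3 for antigen presentation. The cause was not tested.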

Other observations

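The authors' deposited table of the same comparison lists an adjusted p for 18178 genes, of which 5174 are under 0.05, 2717 higher and 2457 lower in ethanol livers. Its log2 values are signed as control over ethanol.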
